A study of Mus musculus with 24 samples.

Results

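The 36 genes described here are interferon response genes, which cells switch on when interferon binds its receptors. They were chosen by symbol from a fixed list and not by a rule on their values, but earlier results of these data were known. All 36 matched 1 gene each of the 55421 in the count table, and they hold 5 signalling and transcription factors, 4 nucleic acid sensors, 16 antiviral effectors, 3 genes of the ISG15 system and its ubiquitin ligases, 3 guanylate-binding proteins and 5 genes of antigen processing for MHC class I. RNA was measured in small intestinal crypts of 8 mice. Controls (het, n = 4) were Setd1aFC/+; Lgr5-eGFP-CreERT2 and knockouts (hom, n = 4) were Setd1aFC/FC; Lgr5-eGFP-CreERT2, so the controls carried 1 conditional allele too. Both genotypes carried the Cre fused to the oestrogen receptor domain under Lgr5 control, both received 1 mg of tamoxifen daily for 3 days, and crypts were collected on day 4 from induction. Ages are not given in the labels. Live cells stained for EpCAM, CD24 and CD45 were sorted as stem cells, transit-amplifying (TA) cells or Paneth cells, which gives 1 library per fraction and animal, 6 groups and 24 libraries.

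Interferons are cytokines, and those of type I and type III are released when sensors such as RIG-I and MDA5 meet foreign RNA. Type I and type III interferons act through JAK kinases on transcription factors that include STAT2 and IRF9 and bind the interferon-stimulated response element (ISRE), and genes induced by interferon gamma often carry the gamma-activated site (GAS). Intestinal epithelium is known for its use of type III interferon against enteric viruses and for a low tonic expression of many interferon response genes.

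Libraries held 24.73 to 47.05 M counts, and the 10 most abundant genes took 13.05% to 57.22% of them. Levels are in CPM, counts scaled to a common library size by TMM across all 24 libraries, and log2 fold changes come from fits within each comparison. Setd1a, the targeted histone methyltransferase gene, stood at 5.62 ± 1.51 CPM in het and 5.16 ± 1.48 CPM in hom stem libraries (SD, n = 4 each). Between hom and het libraries it differed by log2 -0.13 (SE 0.31) for stem cells, by 0.13 (SE 0.27) for TA cells and by -0.64 (SE 0.38) for Paneth cells (edgeR adjusted p 0.982, 0.993 and 1.0). These counts sum all exons, so they do not check the deletion, and how many cells were recombined is not known from these files. The stem marker Lgr5 stood at 157 ± 13.4 CPM in het stem, 8.42 ± 3.55 in het TA and 51.6 ± 6.03 in het Paneth libraries. Lyz1, the Paneth lysozyme gene, stood at 59363 ± 30702 CPM in het Paneth libraries and 157 ± 63.1 in het TA libraries. The Paneth fraction also held tuft cell RNA (9 markers, summed level 1950 to 4029 CPM over its 8 libraries, against 1.68 to 12.7 in the 16 others) and enteroendocrine RNA (8 markers, 4895 to 9679 CPM, against 3.23 to 458). In bulk libraries, fewer cells of a type and less RNA per cell cannot be told apart.

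Promoters show which members carry letters like the ISRE. RefSeq windows (GRCm38.p6, from 250 bases before to 50 after the start site) were held for 27 of the 36 members. The pattern GAAA-NN-GAAA, read on both strands, was in the window of 14 of 27 members (51.9%) and of 1079 of 27025 genes in the table (3.99%). The GAS-like pattern TTC-NNN-GAA was in 8 of 27 members (29.6%) and in 9.55% of all genes. The lines below give 100 bases of 7 windows with the ISRE-like matches in capitals, chosen after the matches were seen, from Isg15, which had almost no counts, to B2m, the most abundant member. A match is a description of letters, not proof of a site. The stretches lie at chr10:128270248-128270347 (Stat2, plus strand), chr19:34640749-34640848 (Ifit1, plus), chr19:34583345-34583444 (Ifit3, plus), chr4:156200836-156200935 (Isg15, minus), chr5:120907526-120907625 (Oas1a, minus), chr3:142620559-142620658 (Gbp2, plus) and chr2:122147503-122147602 (B2m, plus).
Stat2: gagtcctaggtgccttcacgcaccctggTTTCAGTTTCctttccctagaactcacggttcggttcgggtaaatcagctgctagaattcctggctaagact
Ifit1: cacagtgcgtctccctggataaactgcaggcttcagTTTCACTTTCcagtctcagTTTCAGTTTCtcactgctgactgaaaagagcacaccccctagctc
Ifit3: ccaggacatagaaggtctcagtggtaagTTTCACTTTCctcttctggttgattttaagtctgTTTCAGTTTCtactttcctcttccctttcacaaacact
Isg15: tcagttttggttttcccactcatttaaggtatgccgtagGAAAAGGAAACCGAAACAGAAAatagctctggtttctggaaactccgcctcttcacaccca
Oas1a: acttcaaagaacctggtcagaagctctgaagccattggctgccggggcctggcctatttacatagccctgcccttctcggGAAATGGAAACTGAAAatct
Gbp2: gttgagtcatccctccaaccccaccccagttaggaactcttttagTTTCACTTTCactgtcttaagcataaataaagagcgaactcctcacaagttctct
B2m: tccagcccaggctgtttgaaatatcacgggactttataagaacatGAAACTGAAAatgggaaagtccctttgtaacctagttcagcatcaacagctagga
Isg15 held 3 overlapping matches, and Ifit1, Ifit3 and Oas1a held 2 each. Members with the pattern in their window spanned the whole range of levels.

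Levels of the members differed widely. Per kilobase of exon and over all 24 libraries, B2m, the light chain of MHC class I, stood highest at 2248 CPM per kb. It was followed by Ifitm3, a membrane protein that blocks virus entry, at 437 CPM per kb, and by the immunoproteasome subunit gene Psmb8 at 39.3, Ifi27 at 29.3, Ifi35 at 25.5 and the transcription factor gene Irf1 at 19.8. The 6 lowest were the RNA-binding Ifit3 at 0.627 CPM per kb, Ifi44 at 0.549, Rsad2 (viperin) at 0.434, the GTPase gene Mx2 at 0.304, Nlrc5, an activator of MHC class I genes, at 0.256, and Isg15 at 0.107. Isg15 encodes the ubiquitin-like protein that is conjugated to other proteins during an interferon response. It had 41 counts in all 24 libraries and 0 counts in 12 of them, and it was too low to test in every comparison. The near copy of Isg15 in the annotation, AC151275.1, is 95.2% identical over 482 bases and stood at 0.053 CPM or less. Ifit3 and Ifit3b (97.8% identical), Oas1a and Oas1g (97.6%) and Mx2 and Mx1 (95.3%) are near copies too. Fragments of such pairs may be split or lost in counting, so these levels are uncertain. Counting ignored strand, and 29.0% of Tapbp exon bases, 20.0% of Irf1, 16.8% of Ifi35, 14.7% of Psmb8, 13.9% of Rtp4 and 11.3% of Gbp7 overlap other genes.

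**Figure D1:**
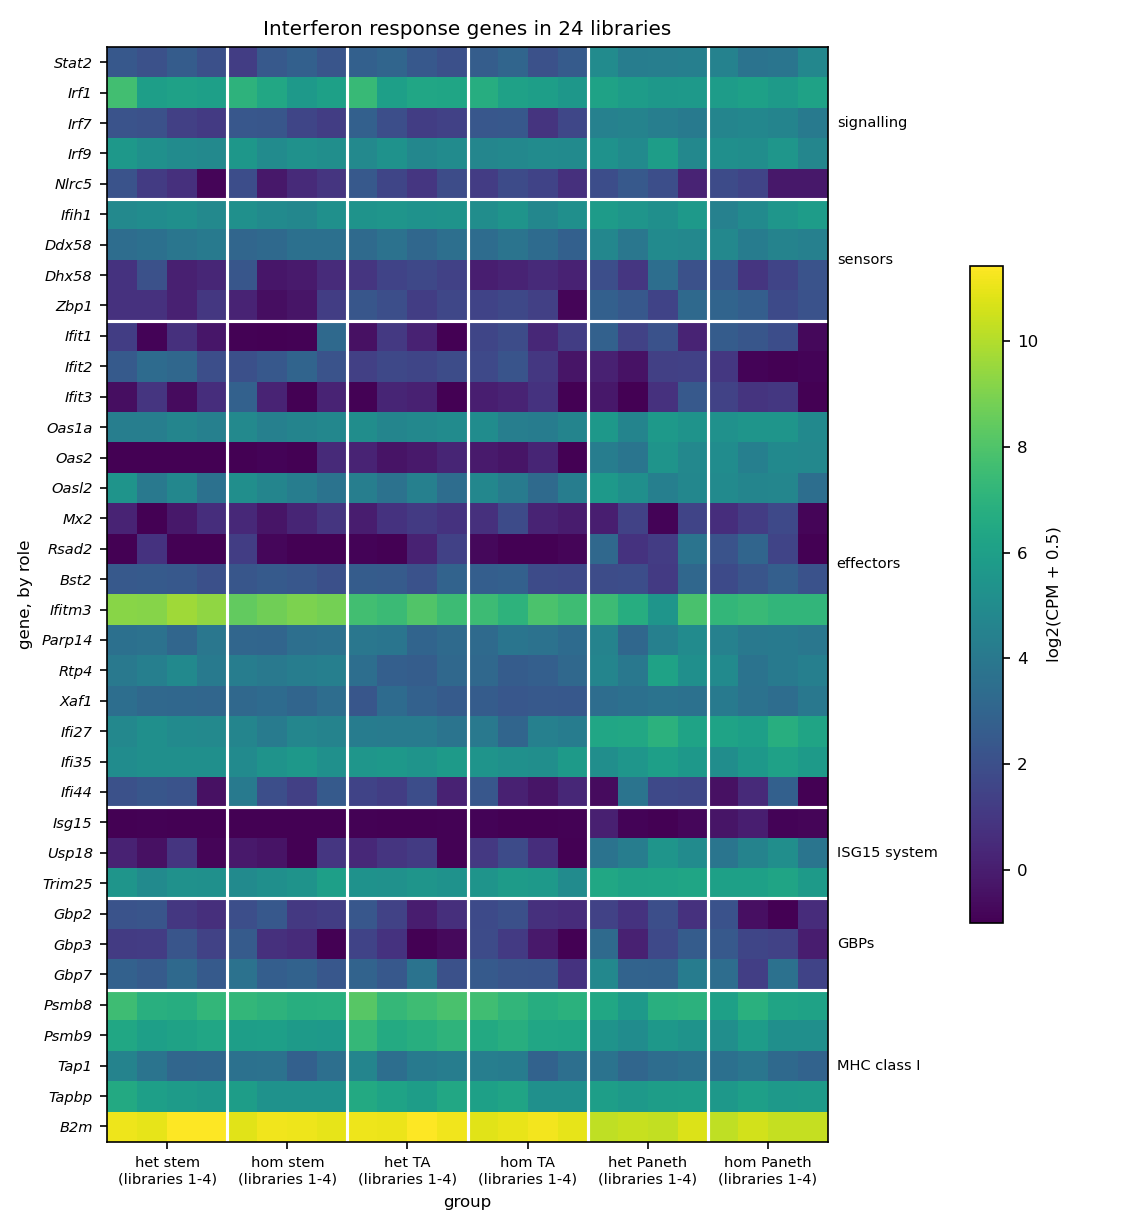
Levels of the 36 members as log2(CPM + 0.5) (colour) in 24 libraries (columns, 4 per group) with genes ordered by role (rows). B2m and Ifitm3 are the brightest rows, Isg15 is dark throughout, and Oas2 and Usp18 are brighter in the 8 Paneth libraries than in the 16 others.

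Gene positions on mm10 are chr7:141009586-141010770 for Ifitm3, chr11:100694884-100704271 for Dhx58, chr10:128270559-128292849 for Stat2, chr5:120730333-120749853 for Oas2, chr6:121245906-121270917 for Usp18 and chr2:122147686-122153083 for B2m, and counts were summed over all exons of a gene.

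The main question of the design is what loss of Setd1a changed in each fraction. In stem libraries 0 of 33 tested members passed the edgeR threshold (adjusted p below 0.05), as did 0.0125% of 16056 genes. In TA libraries it was 0 of 34 members and 0% of 15925 genes, and in Paneth libraries 0 of 35 members and 0% of 16108 genes. DESeq2 called 0 members in each of the 3 fractions as well. At an unadjusted p below 0.05, 4 members were lower and 0 higher in hom stem libraries, where 3.97% of all genes were lower and 2.76% higher. In TA libraries 3 members were lower and 0 higher, against 3% and 2.91% of all genes, and in Paneth libraries 0 members passed in either direction, against 1.37% of all genes lower and 0.919% higher. The median log2 fold change of the tested members, hom against het, was -0.09 in stem, -0.16 in TA and -0.17 in Paneth libraries. Over all genes tested it was 0.00, 0.00 and -0.00. Signs were mixed, with 14 members above and 19 below 0 in stem, 10 and 24 in TA, and 10 and 25 in Paneth libraries. Of all genes, 50.5%, 50% and 49.6% lay above 0. All 4 hom libraries lay below all 4 het libraries for 3 members in stem (3.05% of all genes), 1 in TA (2.18%) and 0 in Paneth libraries (1.01%).

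Ifitm3 had the smallest p of the members in stem libraries. It stood at 590.4, 571, 814 and 660.0 CPM in the het stem libraries and at 347, 422, 497 and 452 CPM in the hom stem libraries. Every hom stem library lay below every het one. The log2 fold change was -0.62 (SE 0.17), and the edgeR adjusted p was 0.348. In TA libraries the het values of 205, 176, 267 and 183 CPM overlapped the hom values of 182, 133, 241 and 190.2 CPM. The other 3 members with an unadjusted p below 0.05 in stem libraries were Psmb9, an immunoproteasome subunit gene (log2 -0.36, SE 0.14), Ifi27 (-0.45, SE 0.18) and Tapbp, which encodes the peptide loading factor tapasin (-0.55, SE 0.23). Their edgeR adjusted p were 0.682, 0.69 and 0.724. Psmb9 stood at 84.3, 65.1, 70.1 and 80.7 CPM in het and 62.7, 64.8, 53.6 and 52.8 CPM in hom stem libraries, and these groups did not overlap. Ifi27 held 27.6, 36.4, 30.3 and 28.1 CPM in het and 24.3, 17.4, 25.1 and 23.4 CPM in hom stem libraries, again without overlap. Tapbp groups overlapped. Ddx58 (RIG-I) was next, at log2 -0.39 (SE 0.23) and an unadjusted p above 0.05.

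In TA libraries Dhx58, which encodes the RIG-I-like receptor LGP2, had the smallest p. It stood at 1.41, 2.29, 2.68 and 2.18 CPM in het and at 0.527, 0.680, 0.878 and 0.647 CPM in hom TA libraries, so the groups did not overlap. The log2 fold change was -1.63 (SE 0.42), with an edgeR adjusted p of 0.56. In stem libraries the same gene overlapped, with 0.354 to 4.51 CPM in hom and 0.574 to 3.73 CPM in het. Psmb8 was at 297, 152, 186 and 231 CPM in het and 194, 144, 106 and 122 CPM in hom TA libraries (log2 -0.60, SE 0.23), and Psmb9 at 152, 96.3, 109.8 and 134 CPM against 94.1, 110.0, 81.5 and 79.5 CPM (log2 -0.41, SE 0.17). Both overlapped between genotypes, and the edgeR adjusted p was 0.81 for each. Tapbp (-0.51, SE 0.25) and the guanylate-binding protein gene Gbp7 (-0.92, SE 0.48) followed. In Paneth libraries the 5 members of smallest p were Rtp4 (-0.85, SE 0.44), Gbp7 (-1.15, SE 0.68), Oasl2 (-0.54, SE 0.38), Ifit2 (-1.69, SE 1.38) and Nlrc5 (mean 1.54 CPM in hom and 3.12 in het), all with an edgeR adjusted p of 1.0.

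By role, the 5 antigen processing genes Psmb8, Psmb9, Tap1, Tapbp and B2m had log2 fold changes below 0 in both stem (median -0.35) and TA libraries (median -0.41), and 4 of 5 did in Paneth libraries (median -0.06). None of these passed the threshold. Stem and TA libraries come from the same animals, so the shared sign is not independent. Among het animals, BN44 held the most Psmb8, Psmb9, Tap1 and Tapbp in both fractions, but not the most B2m. Tap1 stood at 23.4 CPM in the BN44 stem library and at 13.3 CPM or less in the other het stem libraries. Hom stem libraries held 6.42 to 12.3 CPM. With single libraries left out, Psmb9 and Tapbp stayed below 0 in stem (log2 -0.31 and -0.34 at the highest) and TA libraries (-0.31 and -0.36). Psmb9 and Tap1 are neighbours on chromosome 17 and share 212 exon bases, and Psmb8, Psmb9, Tap1 and Tapbp all lie there. The 4 sensors had medians of -0.21, -0.53 and -0.22 in stem, TA and Paneth libraries, and the 5 signalling factors 0.00, -0.12 and -0.16. The 2 tested genes of the ISG15 system had medians of 0.02, 0.37 and -0.26, and the 3 guanylate-binding proteins 0.11, 0.04 and -0.83. The 16 effectors had medians of 0.00 in stem (14 tested), -0.14 in TA (15 tested) and -0.13 in Paneth libraries. Whether the genotype difference itself differed between fractions was tested as an interaction in 35 members. In the tests of stem against TA, stem against Paneth and Paneth against TA differences, 0 members were called. Of all 19396 genes, 0%, 0% and 0.00516% were called. At an unadjusted p below 0.05, which 3.95%, 6.28% and 4.98% of all genes met, the only member was Oas2, in the stem against TA and the stem against Paneth tests, and its stem level rests on 2 and 30 counts in 2 hom libraries.

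**Figure D2:**
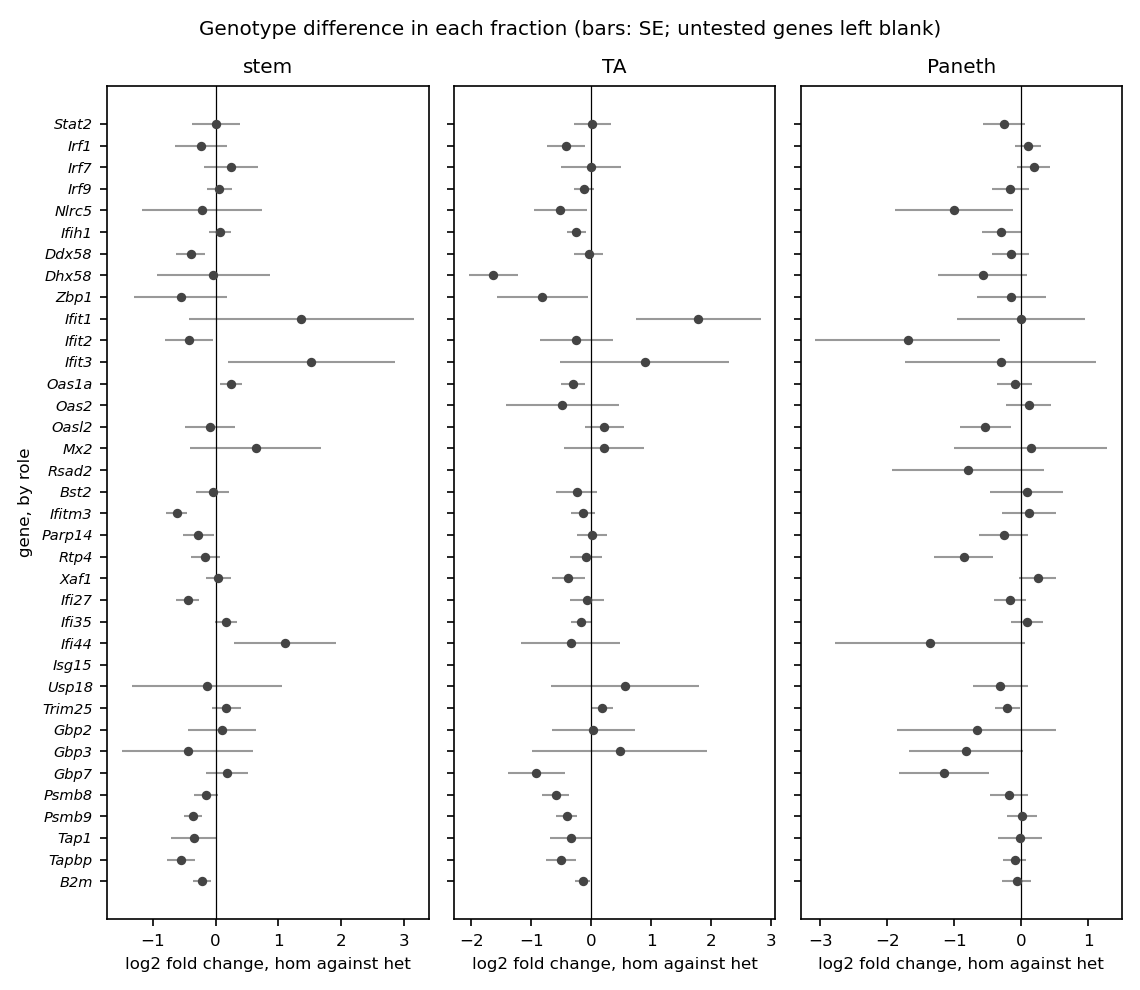
Log2 fold change of hom against het libraries (x axis) with its SE for each tested member (rows, by role) in stem, TA and Paneth libraries. No member passed the threshold, and Dhx58 in TA libraries lies at -1.63. The 5 antigen processing genes at the bottom lie left of 0 in stem and TA libraries, which share their animals.

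The fractions were compared with each other within the 4 het and, separately, within the 4 hom animals, which share no library. In Paneth against TA libraries of het animals 9 of 35 tested members were higher, where 17.4% of 16177 genes were, and 3 were lower, where 11.8% were. In hom animals 10 of 34 were higher (16.3% of 16161 genes) and 3 lower (12.2%). Against stem libraries, 10 of 35 members were higher in het Paneth libraries (17.3% of 16230 genes) and 4 lower (11%), and in hom animals 9 of 35 were higher (17.4% of 16226 genes) and 2 lower (13.2%). The median log2 fold change of tested members was 0.87 and 0.48 for Paneth against TA in het and hom, and 0.86 and 0.31 for Paneth against stem. Over all genes the 4 medians ran from 0.05 to 0.08. Within the Paneth fraction, animal BO58 had the lowest summed Paneth markers of the het libraries (70545 CPM, against 232553 to 463557) and the highest tuft markers (3978 CPM), and among hom libraries BO57 had the lowest Paneth (167110 CPM) and the highest tuft markers (4029 CPM). Tuft, enteroendocrine and Paneth cell RNA moved with each of these differences, with all 9 tuft markers called higher in het Paneth libraries against both other fractions, and their part in the result was not tested. Of 24 immune cell markers, Ptprc (CD45) stood at 22.2 to 42.3 CPM in Paneth libraries and at 0.876 CPM or less in stem and TA libraries. Of the others, Itgam (4.32 CPM), Gzma (4.16), Itgae (2.41), Cd68 (2.04) and Fcer1g (1.04) stood above 1 CPM on average in het Paneth libraries. In het TA libraries Itgam stood at 2.82, Gzma at 0.861 and Cd68 at 1.85 CPM. Stem libraries held Gzma at 3.03 CPM in het and 5.72 in hom animals on average. Cd68 ran from 1.72 to 3.97 CPM and Itgam from 0 to 2.53 CPM in het stem libraries. Gzma held 0, 0.225, 2.56 and 13.9 CPM in the het Paneth libraries. Cd3e of T cells and Tyrobp of myeloid cells stood at 0.087 and 0.058 CPM in het Paneth libraries. The summed level of the 24 ran from 33.4 to 63.8 CPM there and from 6.36 to 39.1 CPM elsewhere.

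Among signalling factors and sensors, Stat2, Irf7 and Ddx58 were higher in Paneth libraries in all 4 comparisons. Stat2, a transcription factor gene of type I and type III interferon signalling, stood at 31.2, 18.6, 19.5 and 19.8 CPM in the het Paneth libraries, 6.44, 7.91, 4.79 and 3.61 CPM in het TA, and 4.78, 3.79, 5.56 and 3.58 CPM in het stem libraries. In hom animals the Paneth libraries held 13.0 to 26.1 CPM. The lowest Paneth library lay above the highest library of the other fractions in both genotypes. Stat2 was higher than in TA by log2 1.99 (SE 0.32) in het and 1.74 (SE 0.33) in hom animals, with edgeR adjusted p of 0.00156 and 0.00448. Irf7, the factor that amplifies type I interferon production, held 21.6, 23.1, 19.1 and 16.6 CPM in het and 24.8, 26.9, 23.4 and 16.6 CPM in hom Paneth libraries. Its 16 stem and TA libraries held 1.32 to 6.40 CPM. The Irf7 difference from TA was log2 2.57 (SE 0.41) in het and 2.78 (SE 0.41) in hom animals, and that from stem 2.83 (SE 0.36) and 2.78 (SE 0.36). Irf1, Irf9 and Nlrc5 passed in none of these 4 comparisons. Ddx58, the RIG-I gene, stood at 26.4, 14.6, 30.7 and 27.6 CPM in het Paneth libraries and 9.46, 12.1, 8.48 and 11.1 CPM in het TA libraries, with differences of log2 0.93 to 1.29 over the 4 comparisons. Against het stem the Ddx58 groups overlapped, and the call was met in 7 of 15 fits. Zbp1, a sensor of Z-form nucleic acids, was higher in Paneth than in stem libraries of both genotypes (log2 2.35, SE 0.55, and 2.77, SE 0.76), at 5.73 ± 2.82 CPM against 1.14 ± 0.384 CPM in het animals. Dhx58 was higher against TA in hom animals alone (log2 2.27, SE 0.57), and Ifih1, the MDA5 gene, against stem in het animals alone (0.61, SE 0.21). With the animal as a block, the edgeR adjusted p of this Ifih1 difference was 0.102, and Zbp1 was lower in het stem than in het TA libraries (adjusted p 0.0482, and 0.0746 without the block). Whether those differ between genotypes was tested above as an interaction, with 0 calls.

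Among effectors and the ISG15 system, Oas2, Usp18 and Ifi27 were higher in Paneth libraries in all 4 comparisons. Oas2, an oligoadenylate synthetase gene of the RNase L pathway, stood at 18.6, 13.8, 42.3 and 27.7 CPM in het and 32.8, 20.0, 29.0 and 27.7 CPM in hom Paneth libraries. All 4 het stem libraries had 0 counts. Taking 3 counts over the 4 libraries as the limit that a count of 0 allows, Oas2 was at least 1439.5-fold higher in het Paneth than in het stem libraries, a limit for counting error only. TA libraries held 0 to 0.721 CPM, and the difference of Paneth from TA was log2 5.62 (SE 0.48) in het and 6.25 (SE 0.71) in hom animals. Usp18, the protease that removes ISG15 and dampens type I receptor signalling, stood at 12.7, 18.6, 44.7 and 31.0 CPM in het and 13.7, 23.3, 35.2 and 13.7 CPM in hom Paneth libraries. Its 16 other libraries held 0 to 3.13 CPM. The Usp18 difference from TA was log2 4.78 (SE 0.84) and 3.90 (SE 0.90), with edgeR adjusted p of 0.00265 and 0.0107. Het animal BO58 and hom animal BO57, which had the fewest Paneth and most tuft markers of their genotype, also held the most Usp18 and Ifi27, and BO58 the most Oas2 and Ddx58 of the het animals. Irf9 (59.0 and 45.0 CPM) and Ifi35 (64.0 and 68.6 CPM) were also highest in BO58 and BO57. Rtp4, Dhx58 and Oas1a were highest in BO58 among het animals but not in BO57 among hom animals. Some members did not follow these 2 animals. Zbp1 was lowest in both (2.37 and 2.99 CPM), and Stat2 and Irf7 were highest in other animals of each genotype. Among hom animals, Oas2 and Ddx58 were highest in BN45 (32.8 and 27.4 CPM). The part of cell makeup in these values was not tested. Usp18, Ifi27, Oas2 and Ddx58 passed against het TA with the BO58 Paneth library left out. Isg15, of the same conjugation cycle as Usp18, held 0 to 0.564 CPM over the 8 Paneth libraries. It had 0 counts in the 4 hom stem libraries, and its hom Paneth level was at least 12.3-fold higher by the same limit. That Paneth level rests on 4, 13, 1 and 2 counts in the 4 libraries, and their own counting error is not in the limit. Ifi27, a small hydrophobic protein gene, held 81.5, 86.9, 124.7 and 72.6 CPM in het and 74.4, 65.1, 110.6 and 75.6 CPM in hom Paneth libraries. Its TA libraries held 7.77 to 20.9 CPM and its stem libraries 17.4 to 36.4 CPM, so the fractions did not overlap with Paneth in either genotype.

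Trim25, the ubiquitin ligase gene of the RIG-I pathway, was at 76.3 ± 6.12 CPM in het Paneth, 40.3 ± 2.32 in het TA and 37.9 ± 5.90 in het stem libraries. It was called in het animals (log2 0.94 and 1.03), and in hom animals the means were 66.2, 45.3 and 42.8 CPM without a call. Trim25 passed against hom TA with the animal as a block (edgeR adjusted p 0.0264, and 0.0569 without). Rtp4, a chaperone gene of membrane receptors, was higher in Paneth than in TA libraries of both genotypes (log2 2.24, SE 0.44, and 1.48, SE 0.33). Oas1a was higher against stem in both genotypes (log2 1.01 and 0.67) and against TA in hom animals alone (0.76). Oasl2 against het TA (log2 1.11), Xaf1 against hom TA (1.48) and Parp14 against hom stem (0.87) were each called once, Parp14 with an edgeR adjusted p of 0.0632 under the animal block. Ifit2 was lower in het Paneth than in het stem libraries, at 0.612, 0.270, 2.04 and 2.18 CPM against 5.29, 9.74, 8.43 and 3.42 CPM (log2 -2.39, SE 0.68). With the animal as a block, the edgeR adjusted p was 0.0509 for this Ifit2 difference and 0.0551 for Oas1a in hom Paneth against hom stem libraries. Ifit2 passed there with the block (0.0356, and 0.054 without). Ifit1, Ifit3, Mx2, Rsad2, Bst2, Ifi35 and Ifi44 passed in none of the comparisons between fractions without a block, and neither did Gbp2, Gbp3 and Gbp7. With the animal as a block, Rsad2 was higher in het Paneth than in het TA libraries (edgeR adjusted p 0.0481), Ifi35 lower in het stem than in het TA (0.0495) and Ifi44 higher in hom stem than in hom TA libraries (0.00945). Without the block these p were 0.0977, 0.0779 and 0.265. Rsad2 stood at 8.70, 1.26, 1.78 and 13.1 CPM in het Paneth libraries, and 9 of all 24 libraries had 0 counts of it.

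**Figure D3:**
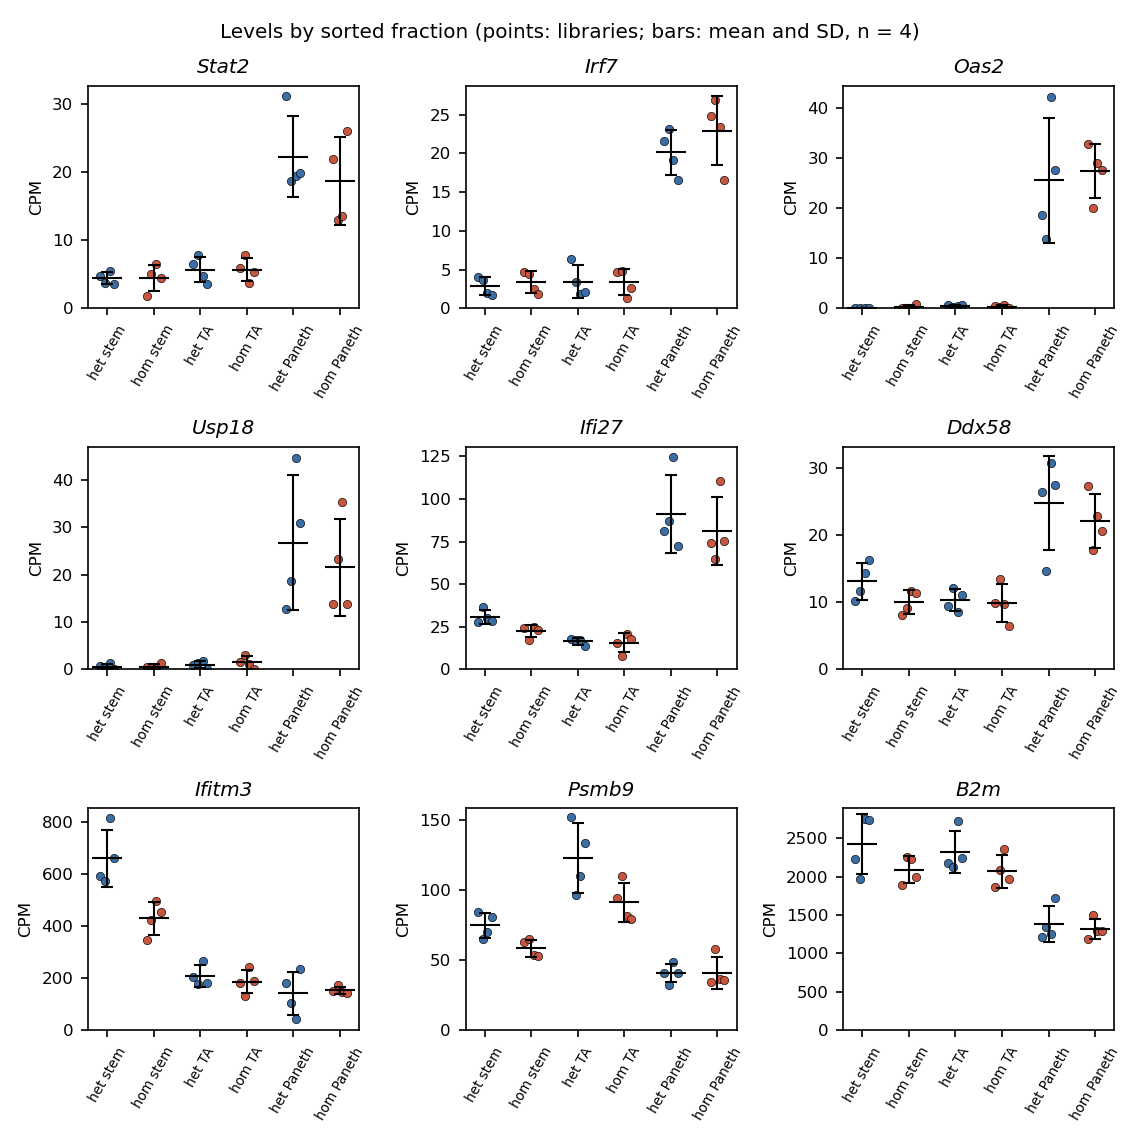
CPM of 9 members in each library (points, het blue and hom red) by group, with mean and SD (n = 4), each axis from 0. Stat2, Irf7, Oas2, Usp18, Ifi27 and Ddx58 are highest in Paneth groups, Ifitm3 in stem groups and Psmb9 in TA groups, while B2m is lowest in Paneth groups.

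Of the 5 antigen processing genes, B2m, Psmb8 and Psmb9 were lower in Paneth than in TA libraries of both genotypes. B2m stood at 1208, 1344, 1250.1 and 1725 CPM in het Paneth libraries, 2174, 2123, 2718 and 2247 CPM in het TA, and 2233, 1973, 2748 and 2741 CPM in het stem libraries. In hom animals Paneth libraries held 1190.5, 1505, 1296 and 1289 CPM, TA libraries 1859 to 2358 CPM and stem libraries 1887 to 2252 CPM. The Paneth libraries lay below all others of their genotype. B2m was lower than in TA by log2 -0.73 (SE 0.22) and -0.62 (SE 0.17), and lower than in stem by -0.79 (SE 0.23) and -0.63 (SE 0.16), with edgeR adjusted p from 0.0147 to 0.0318. With the animal as a block, the adjusted p of the het difference from TA was 0.0532. Psmb9 fell in the order TA, stem, Paneth, with means of 123.0 ± 24.9, 75.0 ± 8.97 and 40.9 ± 6.47 CPM in het and 91.3 ± 14.1, 58.5 ± 6.16 and 41.2 ± 11.4 CPM in hom animals. Each step of Psmb9 was called in het animals. In hom animals Paneth against stem was not called. Psmb8 was lower in Paneth than in TA libraries (log2 -1.19, SE 0.30, in het and -0.76, SE 0.24, in hom). Under the animal block, Psmb8 was also lower in het stem than in het TA (edgeR adjusted p 0.0106, and 0.16 without) and in hom Paneth than in hom stem libraries (0.0377, and 0.0537 without). Without animal BN44 the edgeR adjusted p of the het Psmb8 difference was 0.0875. Tap1, the peptide transporter subunit gene, and Tapbp passed in none of the 6 comparisons between fractions.

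Fewer members were called between stem and TA libraries. In het animals 3 of 34 members were higher in stem (2.69% of 16182 genes) and 2 lower (3.57%), and in hom animals 2 of 34 were higher (2.03% of 15954 genes) and 1 lower (2.58%). Ifitm3 was higher in stem, with the 8 stem libraries at 347 to 814 CPM and the 8 TA libraries at 133 to 267 CPM. The log2 difference was 1.67 (SE 0.18) in het and 1.20 (SE 0.19) in hom animals, with edgeR adjusted p of 0.00129 and 0.00872. Rtp4 held 15.6, 20.0, 29.4 and 16.2 CPM in het stem and 10.7, 6.20, 5.90 and 8.73 CPM in het TA libraries, without overlap (log2 1.37, SE 0.28). In hom animals Rtp4 differed by 1.31 (SE 0.22). Ifi27 was higher in stem in het animals (0.89, SE 0.16), and Psmb9 was lower in stem in both genotypes (-0.71 and -0.65). The Psmb9 call was met in 8 of 15 fits in het and 5 of 15 in hom animals. Oas2 was lower in het stem than in het TA libraries, where it held 0.662, 0.290, 0.405 and 0.718 CPM and stood at least 29.2-fold higher. With the animal as a block, the edgeR adjusted p of this Oas2 difference was 0.0565. Leaving out the third or the fourth het TA library lowered the count of het calls from 5 to 3. The stem fraction held more stem marker RNA (8 markers, 27020 to 45613 CPM summed, against 4854 to 10088 in TA libraries) and less goblet cell RNA (7 markers, 117 to 1091 CPM against 5369 to 15864), and their part in these differences was not tested.

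The differences between fractions were set side by side in both genotypes, which share no animal. Independence of the animals is not shown, since same-numbered het and hom libraries deviated together in stem (r 0.128 to 0.456) and TA libraries (0.101 to 0.466). For Paneth against TA, 34 members were tested in both, and 7 were higher in both (Stat2, Irf7, Ddx58, Oas2, Rtp4, Ifi27 and Usp18) and 3 lower in both (Psmb8, Psmb9 and B2m). The sign was shared by 32 of 34, and Pearson's r over members was 0.908, a description over genes that share libraries. For Paneth against stem, 8 of 35 were higher in both (Stat2, Irf7, Ddx58, Zbp1, Oas1a, Oas2, Ifi27 and Usp18) and Ifitm3 and B2m lower in both, with the sign shared by 29 of 35 and r of 0.902. For stem against TA, Ifitm3 and Rtp4 were higher and Psmb9 lower in both, with the sign shared by 30 of 34 and r of 0.538. Without Oas2, which had 0 counts in het stem libraries, r was 0.758 for stem against TA, 0.872 for Paneth against TA and 0.894 for Paneth against stem. No member was called in opposite directions in the 3 pairs. Some of the shared Paneth calls were not met in every fit. Oas1a against hom stem was met in 6 of 15 fits, and Ddx58 against het stem in 7 of 15. B2m against het TA and Psmb8 against hom TA were met in 9 of 15 fits each. Without animal BN44, whose immediate early genes stood apart, the count of calls in het Paneth against het stem libraries fell from 14 to 8, of which 6 were higher and 2 lower.

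**Figure D4:**
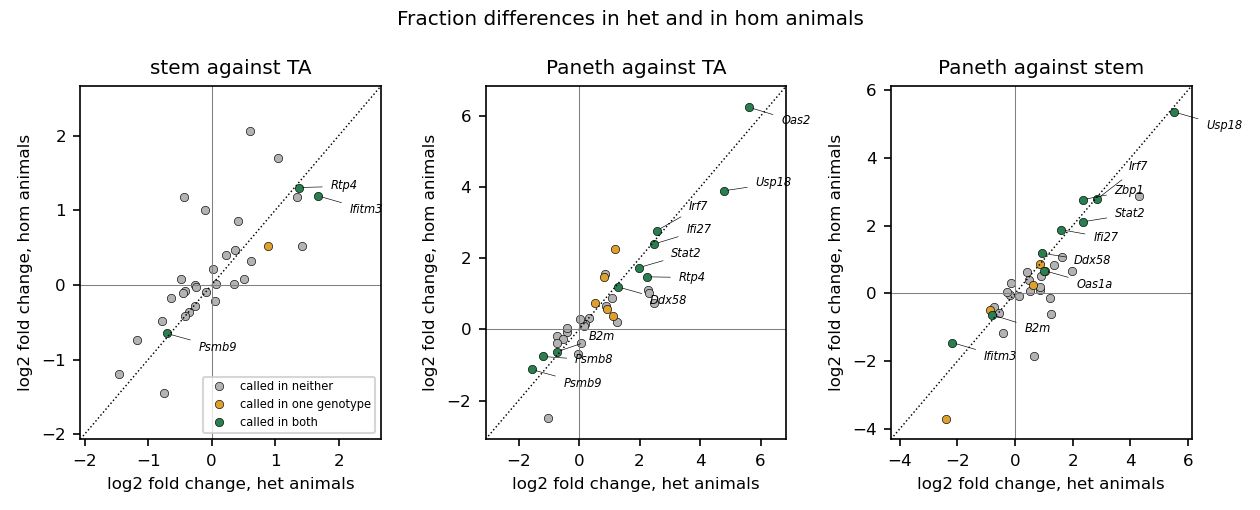
Log2 fold change between fractions in het animals (x axis) against hom animals (y axis) for each member tested in both, with the line of equality dotted and Oas2 left out of the 2 panels with stem libraries because het stem libraries had 0 counts. In Paneth against TA, Usp18 lies at 4.78 and 3.90 and Psmb9 at -1.57 and -1.13.

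The pathway around the members was read from 112 further genes in 7 lists. Ligand genes were low, with Ifnb1, 4 Ifna genes, Ifnk, Ifne, Ifng, Ifnl2 and Ifnl3 at a mean of 0.198 CPM or less in every group. None of these 10 could be tested. The highest was Ifnk, at 0.7 CPM in 1 hom stem library. In the same list Il18, a cytokine that induces interferon gamma, stood at 10.7 to 28.1 CPM over the group means, and it was lower in hom stem than in hom TA libraries (log2 -1.14, SE 0.23). Of 6 receptor genes, Ifngr1, the ligand-binding chain of the interferon gamma receptor, was lower in Paneth libraries in all 4 comparisons. It stood at 101, 78.4, 144 and 99.5 CPM in het Paneth, 352, 327, 314 and 333 CPM in het TA and 387, 315, 234 and 305 CPM in het stem libraries, and the differences ran from log2 -1.35 to -1.64. Ifngr2 was lower against het TA (log2 -0.74) and hom stem (-0.83). Il10rb, a chain of the type III receptor, was higher than in stem in both genotypes (1.02 and 0.78), and Ifnar2 (log2 1.04) and Ifnlr1 (1.03), receptor subunit genes for type I and type III interferons, were higher in het Paneth than in het TA libraries.

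Of 10 JAK, STAT and IRF genes, Stat3 and Jak2 were higher in Paneth libraries in all 4 comparisons, with Stat3 at 44.5 CPM in het Paneth, 20.7 in het TA and 16.0 in het stem libraries. Jak1 was higher against TA in both genotypes (log2 0.78 and 0.60), Tyk2 against both fractions in hom animals, and Irf8 was lower against hom TA (-0.94). Among 8 negative regulators, the phosphatase gene Ptpn6 differed most, at 271 CPM in het Paneth, 11.1 in het TA and 13.0 in het stem libraries (log2 4.62 and 4.41). Of the Paneth libraries, Ptpn6 was highest in BO58 (351 CPM) among het and BO57 (383 CPM) among hom animals, which had the most tuft markers of their genotype. Stat3 was highest in BN44 and BN45. The part of cell makeup in these pathway differences was not tested. Ptpn2 was lower in all 4 comparisons (log2 -0.69 to -0.95). Socs3, a feedback inhibitor of JAK kinases, and Samhd1 were higher against stem in both genotypes. Of 17 further MHC class I genes, all tested, 6 were lower and 0 higher in het Paneth against TA libraries (11.8% and 17.4% of all genes), among them H2-T3, Psme2, Erap1 and Tapbpl, and 5 were lower and 1 higher in hom animals (12.2% and 16.3%). Against stem libraries 4 were lower and 1 higher in het (11% and 17.3%), and 2 lower and 1 higher in hom animals (13.2% and 17.4%), with H2-Q2 the higher one in each. H2-T3 was at 13.7 CPM in het Paneth and 56.1 CPM in het TA libraries. H2-K1 and H2-D1 were called in none of these 4 comparisons. H2-K1 held 314 to 540 CPM in het Paneth and 284 to 521 CPM in het TA libraries. For H2-D1 the ranges were 378 to 580 CPM and 291 to 687 CPM. The median log2 fold change of the 17 genes against TA was -0.34 in het and 0.28 in hom animals. Of 50 further interferon-induced genes, 8 of 39 tested were higher and 3 lower against het TA, and 5 and 5 of 38 against hom TA. Against stem it was 6 and 5 of 40 in het and 5 and 6 of 40 in hom animals, and all-gene shares are those just given. Oas1g and Isg20 were higher in all 4 comparisons and Ifi27l2b and Irgm1 lower. Across genotype, edgeR called 0 of the 91, 92 and 89 pathway genes tested in stem, TA and Paneth libraries.

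Irf1 differed between animals within a genotype. It stood at 201, 62.1, 68.0 and 64.4 CPM in het stem libraries (animals BN44, BO27, BO58 and BP03) and at 129, 86.5, 53.0 and 66.3 CPM in hom stem libraries (BN45, BO25, BO57 and BP04). In TA libraries it held 164, 63.7, 82.1 and 78.7 CPM in het and 108, 69.6, 62.5 and 47.3 CPM in hom animals. BN44 and BN45 were the highest of their genotype in both fractions, and in Paneth libraries Irf1 ran from 49.4 to 70.8 CPM over all 8 animals. In the same 2 animals the summed level of 10 immediate early genes, listed after the data were seen, was 3681 and 2737 CPM in stem libraries, against 496 to 1147 CPM in the other 6. It was 2010 and 2119 CPM in their Paneth libraries, against 453 to 711 CPM in the others. Its part in the Irf1 level was not tested. The members with the widest spread after removal of group means were Ifit3, Rsad2, Ifit1, Gbp3, Ifi44 and Usp18 (SD of log2 level 1.49 to 1.96). Ifit1 stood at 0.024, 0, 0.030 and 8.94 CPM in hom stem libraries, and Ifit3 at 6.67, 0.664, 0 and 0.692 CPM. Gbp3 ran from 0 to 5.37 CPM and Ifi44 from 2.07 to 16.4 CPM in the same libraries. Rsad2 held 1.85, 0.089, 0 and 0 CPM there. The high hom stem library was BN45 for Ifit3, Gbp3, Ifi44 and Rsad2, and BP04 for Ifit1 and Usp18.

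**Figure D5:**
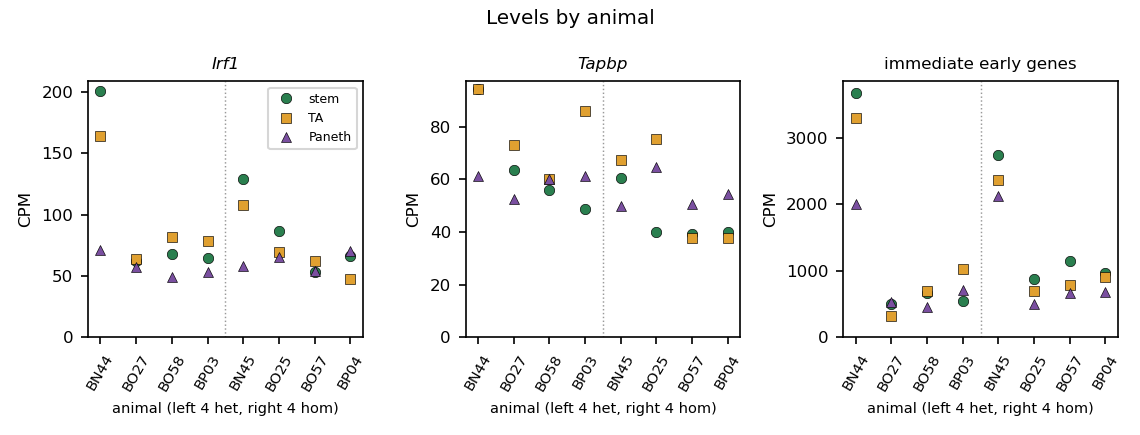
CPM of Irf1, Tapbp and the sum of 10 immediate early genes (y axes from 0) for each of 8 animals (x axis, het left of the dotted line, hom right) in stem, TA and Paneth libraries. BN44 and BN45 stand high for Irf1 in stem and TA libraries and for the immediate early genes in all 3 fractions.

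The 10 genes outside the members whose group-centred log2 level was most like the members' mean were Gm19680 (Pearson's r 0.874 over 24 libraries), Aldh3b1, Dap, Chmp6, Abtb1, Polr3d, Ggt6, Vps45, Narf and Poc1a (0.77), chosen from 10524 genes. This is a description over libraries of which 3 share each animal.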

How the data were processed

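RNA of sorted crypt cells was amplified to cDNA and sequenced, and the authors deposited whole-number counts of fragments per gene. Per the file headers they were made with featureCounts 2.0.1 against Ensembl 98 gene models on mm10, without strand and with a minimum mapping quality of 1, and per the submitters' processing notes reads were demultiplexed with bcl2fastq 2.20.0. The aligner's settings are not given in the sources used here. Depth was 24.73 to 47.05 M counts a library, so 3 counts, the limit that a count of 0 allows, are far below 1 CPM. The table's 92 spike-in rows (at most 6 counts in a library) stayed out of every step. Each fraction of an animal is 1 library, and p-values measure the spread between 4 animals a group.

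Groups were compared pairwise with edgeR 4.0.16 (R 4.3.3), with TMM scaling, its filter on low counts, the quasi-likelihood test and Benjamini-Hochberg adjustment over all genes tested. The difference of genotype effects between fractions came from 1 fit of all 24 libraries. The script was tested on simulated data. Alternatives were DESeq2 1.42.0, RLE scaling, no filter, 1 fit of all libraries, the replicate number as a block, leaving out each library, and, added after the data were seen, leaving out animals BN44 and BN45. The members and lists were chosen with earlier results of these data known. Members past the threshold were named, at most 8 per direction by the rule, and the few beyond it were named too. Where fewer than 3 passed, the 5 of smallest p were given. Of the pathway lists, up to 4 genes per list and comparison were named, and those beyond that were chosen after their values were seen. Fractions of 1 animal share that animal, so the block pairs them, and their deviations from the group means correlated at -0.037 to 0.585. Near copies were found with blastn 2.17.0 at 95% identity over at least 100 bases.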

Additional observations from a re-analysis of the deposited data

Results flagged for a closer look

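In 7 of 130 sets of 4 libraries (members of at least 5 CPM on average, by group), the highest or lowest library stood apart from the other 3 by a gap above Dixon's critical value for 4 samples, and chance gives such a gap in about 1 of 20 sets. Stat2 stood at 31.2 CPM in the Paneth library of het animal BN44, against 18.6 to 19.8 CPM in the other het Paneth libraries. Irf1 stood at 201 CPM in the stem library of BN44, against 62.1 to 68.0 CPM, and Ifi35 at 32.3 CPM there, against 35.6 to 36.1 CPM. Tapbp stood at 60.6 CPM in the hom stem library of BN45, against 39.2 to 40.0 CPM, and at 52.6 CPM in the het Paneth library of BO27, against 60.1 to 61.2 CPM. Psmb9 stood at 58.3 CPM in the hom Paneth library of BO25, against 34.4 to 36.4 CPM. Ifi27 stood at 13.4 CPM in the het TA library of BP03, against 17.4 to 17.9 CPM. Of these 7 sets, 4 belong to the animals BN44 and BN45.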

How the results depend on the processing

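No result changed direction under the alternatives run. The 3 genotype comparisons and 3 interactions gave 0 called members under every alternative. With DESeq2, 9 members were called between het stem and het TA libraries (4 higher and 5 lower) where edgeR called 5, and the count was 3 to 5 with single libraries left out. Leaving out BN44 gave 8 calls in het Paneth against het stem libraries where all animals gave 14. The causes were not tested. With single libraries left out, counts ran from 10 to 13 for het Paneth against TA, 10 to 15 for het Paneth against stem, 2 to 3 for hom stem against TA, 11 to 14 for hom Paneth against TA and 9 to 12 for hom Paneth against stem. The replicate block moved no count by over 1.5 times (het Paneth against TA 12 to 12, hom 13 to 14, het stem against TA 5 to 7) but 6 calls were lost and 8 gained with it, each given beside its gene, and it changed no other call. Between genotypes the replicate numbers only follow accession order. There the same-numbered deviations correlated at 0.018 to 0.466, every stem and TA library correlated best with its own number, and the block gave 0 calls. Calls of Stat2, Irf7, Oas2 and Ifi27 in Paneth against both fractions were met in all 15 fits in both genotypes, while Ifih1 was met in 4 of 15. RLE and DESeq2 scaling moved the median of all genes by at most 0.03 (log2). Isg15, with 41 counts over all 24 libraries, could not be tested.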

Other observations

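Iigp1 and H2-T3, genes of the pathway lists outside the members, stood lower in hom than in het TA libraries. They are given here because of those values. Iigp1, an immunity-related GTPase gene, stood at 4.46, 7.62, 1.82 and 5.99 CPM in het TA and at 0, 0.030, 0.031 and 0.197 CPM in hom TA libraries, without overlap (log2 -6.18, SE 0.88, edgeR adjusted p 0.0975). In stem libraries it held 10.6, 1.24, 20.3 and 3.32 CPM in het and 0.808, 1.20, 0.030 and 2.80 CPM in hom animals, which overlapped. In Paneth libraries the order was not the same, with 0, 0, 0 and 5.30 CPM in het and 11.0, 1.56, 0.042 and 5.82 CPM in hom animals. H2-T3, a non-classical MHC class I gene, stood at 56.5, 62.2, 49.8 and 55.8 CPM in het TA and at 39.4, 42.7, 31.6 and 35.0 CPM in hom TA libraries (log2 -0.58, SE 0.14, edgeR adjusted p 0.489). Its hom and het means were 36.7 and 36.1 CPM in stem and 16.6 and 13.7 CPM in Paneth libraries. Neither passed the threshold.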
